A study of Mus musculus with 4 samples.

Results

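The somatostatin system described here comprises 7 genes, taken by gene symbol from the 23991 symbols that each library listed: the ligand genes Sst and Cort and the 5 receptor genes Sstr1, Sstr2, Sstr3, Sstr4 and Sstr5. RNA came from both sides of the amygdala of mice of 1 genotype, NpyCre/+;TRAPlox/lox, in which Cre expressed from the neuropeptide Y (Npy) locus switches on a tag on ribosomes. Translating ribosome affinity purification (TRAP) then separates RNA bound to tagged ribosomes from the rest. The groups were 2 libraries of immunoprecipitated (IP) RNA and 2 libraries of total input RNA. Each library held RNA pooled from 3 mice, so that individual animals cannot be seen, and all 4 libraries carried the same Cre and lox alleles. Treatment, age and sex are not given in the sources used here. The tag marks cells with Cre activity from the Npy driver, and a library of Cre-negative tissue was not analysed here.

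Somatostatin and cortistatin are small cyclic peptides cut from the end of longer precursors. They act on a shared family of receptors that couple to inhibitory Gi/o proteins, which lower cyclic AMP production and open GIRK potassium channels. In the cortex and amygdala, Sst marks a large class of GABAergic interneurons, many of which also make Npy, and Cort is expressed in a part of those interneurons.

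The coding sequences of the mature peptides show how close the ligand genes are. The last 14 codons before the stop codon, which encode somatostatin-14 in Sst and the cortistatin core in Cort, are given below, read from GENCODE M21 transcripts. Both lie on the minus strand of mm10, at chr16:23889732-23889773 for Sst and chr4:149125267-149125308 for Cort. Capitals mark bases that are identical when codons 2 to 14 of Sst are set against codons 1 to 13 of Cort.
Sst: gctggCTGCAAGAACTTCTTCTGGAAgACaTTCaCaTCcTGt
Cort: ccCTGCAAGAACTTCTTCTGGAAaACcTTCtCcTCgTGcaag
Of the 39 bases so aligned, 31 were identical (79.5%), and 7 of 13 codons were identical throughout. The longest shared run covers only a part of the receptor-binding core of the peptides and ends within the codon that follows TGG.

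Both ligand genes rose in IP, and Sst was the most abundant transcript there. Sst had 4562 and 4756 FPKM (fragments per kilobase of transcript, scaled to the mapped reads of the library) in the IP libraries, against 356.9 and 335.6 FPKM in input. It was the highest of 22754 symbols kept in both IP libraries, where it made up 1.08% and 1.13% of all FPKM, and it ranked 83rd and 101st in input, with 0.107% and 0.1%. The groups lay far apart, and the IP mean was 13.5-fold higher, at 4659 ± 137 FPKM against 346 ± 15.1 in input (SD, n = 2 each). On the log2(FPKM + 1) scale used for all tests, the change of Sst was 3.75 (SE 0.05, 95% interval 3.61 to 3.88; limma, adjusted p = 1.77e-06). Changes are IP minus input. Same-numbered IP and input libraries come from the same pools per the design text. A change thus compares RNA fractions of the same tissue, not tissues with more or fewer cells. In bulk RNA, which cells a transcript came from and how much each cell held cannot be told apart.

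Cort, at a much lower level, moved by nearly the same factor. It had 153.8 and 148.0 FPKM in IP, against 10.91 and 11.32 FPKM in input. By level it ranked 495th and 519th of the 22754 symbols in IP, against 5949th and 5757th in input. Again no input library came near an IP library. The means were 150.9 ± 4.11 FPKM in IP and 11.1 ± 0.29 in input, a 13.6-fold difference, and the log2 change was 3.65 (SE 0.05, 95% interval 3.52 to 3.78; limma, adjusted p = 1.77e-06). Among the 12325 tested genes above 0 in all 4 libraries, Sst and Cort had the largest and the second largest log2 change. Over all 12417 genes tested they ranked 6th and 8th. The order depended on the setting: with quantile normalization Sst changed by 2.76 and Cort by 3.43. Sst then lay below Npy, Pvalb, Crhbp and Cox6a2 as well. The lowest changes of these genes under any alternative were 3.09, 3.05, 2.96 and 2.86.

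The proportion of the 2 ligand transcripts was alike in IP and in input. Cort stood at 3.37% and 3.11% of the Sst FPKM in the IP libraries, and at 3.06% and 3.37% in input. These ranges overlap, with means of 3.24 ± 0.184% in IP and 3.21 ± 0.224% in input (SD, n = 2 each). A two-sided exact permutation test gave p = 1, where 0.333 is the smallest p that it allows. This test shuffled all 4 libraries freely and did not use the shared pools. Carried through the confidence limits that Cufflinks lists beside each FPKM, the input ratios could lie anywhere from 2.21% to 4.34%, which bounds how alike they can be said to be. For Npy, the driver gene, the ratios lay apart by their values: Sst stood at 368% and 407% of the Npy FPKM in IP, against 339% and 338% in input (exact permutation test, p = 0.333, the smallest possible). The confidence limits of IP replicate 1, 357% to 379%, overlapped those of the input libraries, 304% to 379% and 303% to 379%. Those of IP replicate 2, 394% to 421%, lay above both. Npy itself had 1240 and 1167 FPKM in IP, against 105.4 and 99.24 in input.

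**Figure D1:**
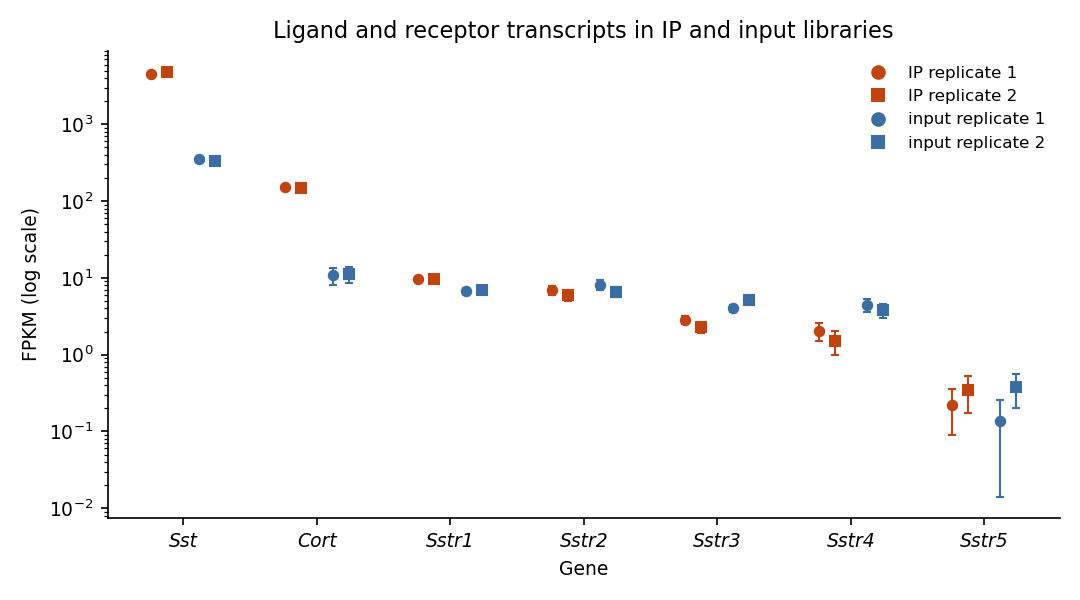
FPKM of each of the 7 genes (log axis) in the 2 IP libraries (red) and the 2 input libraries (blue), with bars for the confidence limits listed by Cufflinks. Sst and Cort lie more than 10-fold higher in IP, while each receptor gene stays within a factor of 3 of its input level or, for Sstr5, near the limit of detection.

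Cort has a close neighbour on the same strand. By the locus listed with its FPKM (mm10), Cort lies on chromosome 4 from 149125191 to 149126741. In GENCODE M21 it has 2 coding exons. The next gene in GENCODE, 358 bases away by its own gene bounds, is Apitd1, called Cenps there, which encodes the centromere protein CENP-S. Apitd1 had 11.05 and 10.14 FPKM in IP, against 3.097 and 3.302 in input, a 3.31-fold difference (log2 change 1.46, SE 0.08; limma, adjusted p = 3.77e-05). As a share of the Cort FPKM it was 7.18% and 6.85% in IP and 28.4% and 29.2% in input. Whether transcripts that run through both genes add to either value was not tested. GENCODE lists no gene overlapping Sst, which has 2 coding exons and by its listed locus lies on chromosome 16 from 23889581 to 23890844.

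The receptor genes did not follow the ligands. Of the 5 receptors, 4 were tested, since 2 or more of their libraries reached 1 FPKM; 1 rose (Sstr1), 2 fell (Sstr3 and Sstr4) and 1 did not pass the test (Sstr2), while Sstr5 was below the filter; after rescaling 0 receptors were higher, and with quantile normalization 1 was lower. With the ligands, 3 of the 6 members tested were higher and 2 lower in IP at an adjusted p of 0.05, where 37.0% of the 12417 genes tested were higher and 33.9% lower, 70.9% in all. The groups did not overlap for 5 of the 6, as for 86.4% of all genes tested, so a call or a gap between groups is common here. The 4 tested receptors had a median log2 change of -0.41, where the median over all genes tested was 0.03. Summed over the 5 receptors, FPKM were 21.7 and 19.81 in IP, against 23.48 and 22.98 in input (exact permutation test, p = 0.333, the smallest possible).

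Sstr1, which belongs to the same pharmacological class as Sstr4, was the one receptor that rose. It had 9.68 and 9.746 FPKM in IP, against 6.723 and 7.029 FPKM in input. Both IP values lay above both input values, as they did for 45.0% of all genes tested. The difference was 1.41-fold, or 0.44 on the log2 scale (SE 0.07, 95% interval 0.28 to 0.61; limma, adjusted p = 0.00145). The call rested on the scaling: when each library was rescaled to the same FPKM sum the change was 0.15 (adjusted p = 0.104). That rescaling moved the median of all genes tested to -0.29, and relative to that median Sstr1 stood at 0.44, against 0.42 with the deposited values.

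Sstr2, the main target of drugs such as octreotide, had 6.916 and 5.949 FPKM in IP, against 8.133 and 6.567 FPKM in input. The groups overlapped. The log2 difference was -0.16 (SE 0.12), with a 95% interval of -0.45 to 0.12, and did not pass (limma, adjusted p = 0.245). Sstr2 lies on the plus strand of chromosome 11 from 113619481 to 113625895, inside the Slc39a11 gene of the opposite strand, and whether reads of both genes were kept apart is not known from the files. After rescaling to equal sums it was -0.50 and passed (adjusted p = 0.012), or -0.21 relative to the median of all genes.

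Sstr3, which is concentrated in the primary cilia of neurons, had 2.84 and 2.27 FPKM in IP, against 4.042 and 5.212 FPKM in input. Both IP libraries lay below both input libraries, as for 41.4% of all genes tested. The IP mean was 1.81-fold lower (log2 change -0.66, SE 0.13, 95% interval -0.98 to -0.33; limma, adjusted p = 0.00495). With quantile normalization the change was -0.36 and did not pass (adjusted p = 0.0593).

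Sstr4 showed the largest fall of the receptors tested. It had 2.039 and 1.494 FPKM in IP, against 4.446 and 3.799 FPKM in input. The groups did not overlap, the IP mean was 2.33-fold lower, and the log2 change was -0.89 (SE 0.13, 95% interval -1.20 to -0.59; limma, adjusted p = 0.00103). By the size of its log2 change Sstr4 ranked 11172nd of the 12417 genes tested, counted from the largest rise, so many genes fell further. Sstr3 ranked 10451st, Sstr2 7718th and Sstr1 2650th.

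Sstr5 was close to the limit of detection. It had 0.2228 and 0.3506 FPKM in IP, against 0.1366 and 0.3769 FPKM in input, and the groups overlapped. If the listed limits span 2 SD of a read count on either side, these values rest on about 11.3 and 15.4 reads in IP and about 4.98 and 18.0 reads in input. Without the filter its log2 difference was 0.04 with a 95% interval of -0.27 to 0.35 (limma, adjusted p = 0.795), an interval on the log2(FPKM + 1) scale, which at this level is nearly blind to ratios. By the same estimate, Sstr4 rests on about 57.3 and 34.7 reads in IP against 113 and 99.9 in input, and Sst on about 42600 and 36900 reads in IP against 2970 and 2890 in input.

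**Figure D2:**
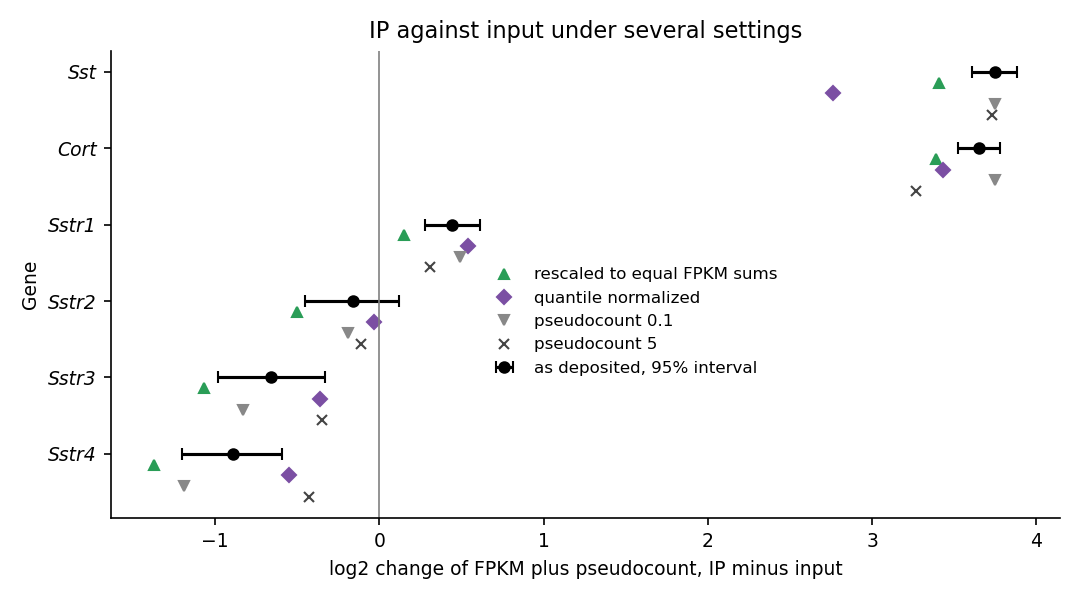
Log2 change, IP minus input, of the 6 tested genes (black points with 95% intervals from limma) and the same change under 4 other settings (coloured marks). Sst and Cort stay above 2.7 under each, Sstr1 comes down to 0.15 after rescaling, and Sstr3 and Sstr4 stay below 0.

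The receptor transcripts had 1 order of levels in both IP libraries, while the 2 input libraries differed from each other. In the IP libraries Sstr1 was the most abundant receptor, at 9.71 FPKM on average, followed by Sstr2 at 6.43, Sstr3 at 2.56, Sstr4 at 1.77 and Sstr5 at 0.287. Each of these neighbours lay apart in both libraries, although the confidence limits of Sstr3 and Sstr4 overlapped. In input the averages were 7.35 FPKM for Sstr2 and 6.88 for Sstr1, which overlapped, then 4.63 for Sstr3 and 4.12 for Sstr4, which also overlapped, and 0.257 for Sstr5. Input replicate 2 alone had the order of the IP libraries, and in input replicate 1 Sstr2 lay above Sstr1 and Sstr4 above Sstr3, so no difference in order between the groups was shown.

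As a share of summed receptor FPKM, Sstr1 made up 44.6% and 49.2% in IP, against 28.6% and 30.6% in input. Sstr2 held a like share in both groups, at 31.9% and 30.0% in IP and 34.6% and 28.6% in input. The shares of Sstr3 (13.1% and 11.5% in IP, against 17.2% and 22.7% in input) and Sstr4 (9.4% and 7.54% in IP, against 18.9% and 16.5% in input) were smaller in IP. These shares do not depend on the scaling between libraries, and they are given without a test. The ligand stood far above each receptor: Sst FPKM were 471 and 488 times those of Sstr1 in IP, against 53.1 and 47.7 times in input.

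**Figure D3:**
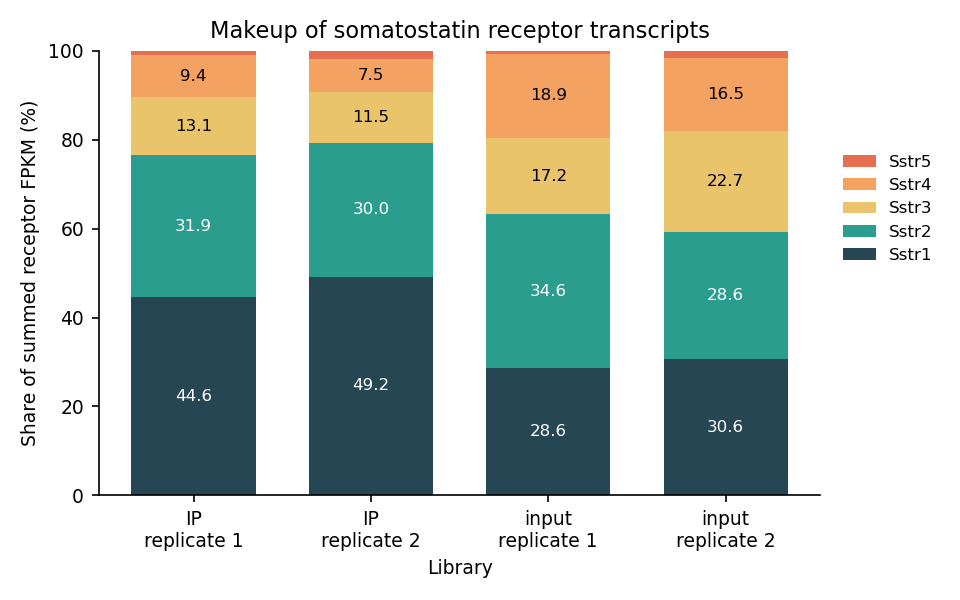
Share of each receptor gene in the summed FPKM of the 5 receptors (stacked, in percent), for the 2 IP and the 2 input libraries. The share of Sstr1 is 44.6% and 49.2% in IP against 28.6% and 30.6% in input, and those of Sstr3 and Sstr4 are smaller in IP.

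Markers of other cell types moved with these differences. Glutamatergic neurons, astrocytes, oligodendrocytes and microglia were followed with 5 markers each. All 15 glial and microglial markers fell, and of the 5 glutamatergic markers 3 fell and 2 did not pass. Among all genes tested, 33.9% were lower in IP and 37.0% higher. Summed FPKM of the glutamatergic markers were 222.5 and 144.7 in IP against 352.3 and 363.4 in input. The sums were 27.69 and 33.96 in IP against 170.5 and 184.5 in input for astrocytes, and 39.91 and 48.04 in IP against 251.9 and 230.0 in input for oligodendrocytes. Microglial markers summed to 2.335 and 1.648 FPKM in IP, against 31.52 and 28.84 in input, and none was at 0. The sums for endothelium were 0.5807 and 0.6329 in IP against 3.136 and 2.755 in input, with 3 of its 4 markers below the filter, and those for ependyma and choroid plexus were 12.39 and 3.297 in IP against 180.2 and 14.98 in input. The part of these cells in the receptor differences was not tested. The 4 GABAergic markers all rose, with Gad1, a GABA-synthesizing enzyme, at 589.2 and 633.3 FPKM in IP against 127.8 and 127.6 in input. Of the receptors, Sstr3 and Sstr4 thus changed in the direction of the glial and glutamatergic markers and Sstr1 in that of the GABAergic markers, by far smaller amounts.

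Markers of Sst neurons were mostly higher in IP, as were those of GABAergic neurons in general. Of 13 such genes, all tested, 12 rose, 0 fell and 1 did not pass, where 37.0% of all genes tested rose and 33.9% fell. Their median log2 change was 1.70, where the 4 general GABAergic markers had a median of 1.98. Pvalb, which marks another class of interneurons, rose by 3.39 (limma, adjusted p = 1.4e-05), so the rise was not particular to markers of Sst neurons. Npy had a change of 3.54, Crhbp, whose product binds the stress peptide CRH, of 3.32, the interneuron transcription factor gene Lhx6 of 2.93, and Nxph1, a secreted neurexin ligand, of 2.57. Elfn1, a postsynaptic organizer of synapses onto Sst interneurons, rose by 2.11. Chodl, a marker of long-range Sst and Npy neurons, had 2.277 and 2.378 FPKM in IP, against 0.5185 and 0.5007 in input (log2 change 1.14; limma, adjusted p = 0.000106). Tacr1, the substance P receptor gene found in the same neurons, rose by 0.84. Nos1, the neuronal nitric oxide synthase gene, had 18.59 and 14.92 FPKM in IP, against 9.815 and 12.07 in input with a log2 change of 0.57 (limma, adjusted p = 0.00806). It did not pass after rescaling (adjusted p = 0.123) or when input replicate 1 was left out (log2 change 0.43, adjusted p = 0.081). The gene that did not pass was Reln, at 3.529 and 4.128 FPKM in IP and 4.247 and 6.113 in input. Reln passed downward with the replicate block (log2 change -0.34, adjusted p = 0.0122), after rescaling (-0.70, adjusted p = 0.0131) and when input replicate 1 was left out (-0.56, adjusted p = 0.0264).

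The genes whose pattern over the 4 libraries was most like that of Sst were Cort, Npy, Hyi, Ak6 and Crhbp. Likeness was the Euclidean distance of log2(FPKM + 1) values after each gene's mean was taken off, over 8635 genes, and these 5 lay at 0.16, 0.23, 0.37, 0.40 and 0.46 in that order. Hyi and Ak6 differ from the others in that they were listed at 0 in both input libraries, with 16.45 and 15.96 FPKM for Hyi and 17.18 and 15.53 FPKM for Ak6 in IP. Nearest to Cort were Npy at 0.14 and Sst at 0.16, then Pvalb, the gene of the calcium-binding protein parvalbumin, at 0.35, Cox6a2, which encodes a subunit of cytochrome c oxidase, at 0.39 and Crhbp at 0.44. Pvalb had 375.3 and 297.1 FPKM in IP, against 32.25 and 29.85 in input. Cox6a2 had 101.0 and 102.4 FPKM in IP, against 9.138 and 10.23 in input.

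**Figure D4:**
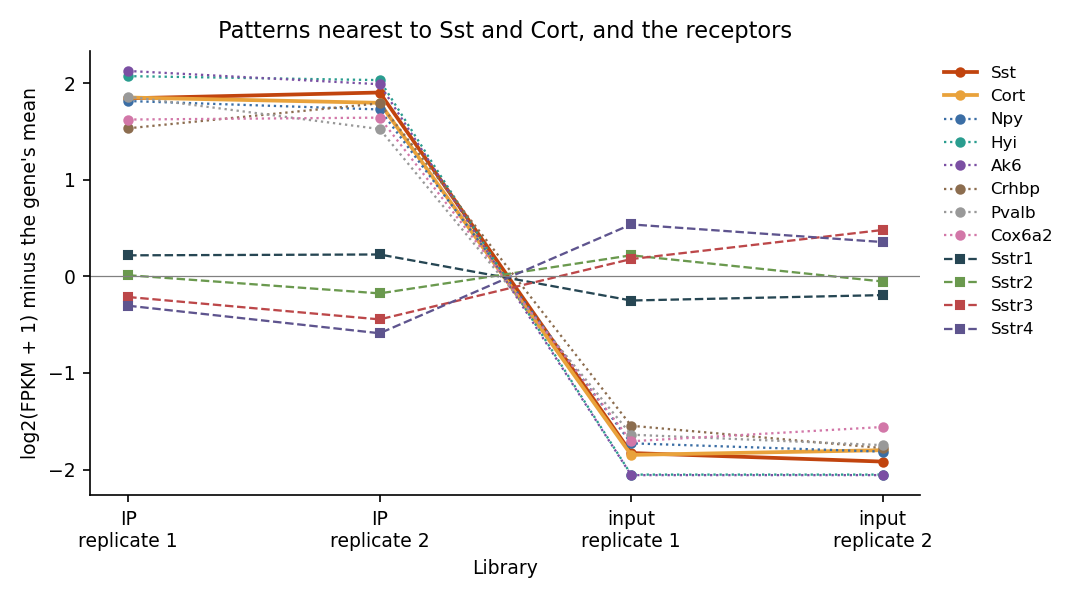
Values of log2(FPKM + 1) minus the gene's mean in the 2 IP and the 2 input libraries, for Sst and Cort (solid), the genes nearest to them in pattern (dotted) and the 4 tested receptors (dashed). The nearest genes run with the ligands, whose log2 changes are 3.75 and 3.65, while the receptors stay within 1 unit of their own mean.

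Upstream of the peptide, genes of the enzymes that process prosomatostatin changed by far less than Sst. Of 4 genes, 3 fell and 1 rose, with a median log2 change of -0.43. Over all genes tested 33.9% fell and 37.0% rose, the background for the counts of this and the following lists. Cpe, the carboxypeptidase that trims peptide ends, had 255.0 and 265.1 FPKM in IP, against 350.4 and 366.4 in input (log2 change -0.46; limma, adjusted p = 0.000337). The convertase genes Pcsk1 and Pcsk2 changed by -0.40 and -0.50 (limma, adjusted p = 0.022 and 0.0119). Neither passed when input replicate 2 was left out (-0.249 and -0.475, adjusted p = 0.0999 and 0.107), which left 1 of the 4 genes lower. Pcsk2 also missed the threshold when input replicate 1 was left out (adjusted p = 0.0873), and Pcsk1 when IP replicate 2 was (adjusted p = 0.0764), with no filter (adjusted p = 0.0622) and with quantile normalization (adjusted p = 0.505). Furin, a convertase of the Golgi, rose by 0.39 but did not pass once the libraries were rescaled (0.10, adjusted p = 0.278).

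Downstream of the receptors, genes moved in both directions. Of 5 Gi/o alpha subunit genes 2 rose (Gnai1 by 0.15 and Gnai2 by 0.21) and 2 fell (Gnai3 and Gnao1, at -0.27 and -0.15), with a median of -0.10, but 0 were higher and 4 lower after rescaling, all 5 were lower with quantile normalization, and 0 were called in either direction when input replicate 1 was left out. No gene of the list was lower when IP replicate 2 or input replicate 2 was left out. Gnao1, the most abundant of them, had 214.4 and 208.9 FPKM in IP and 238.0 and 233.1 in input. Of 4 GIRK channel genes, 3 were tested and 2 fell. Kcnj5, which encodes GIRK4, was below the filter, with 0.5022 and 0.6373 FPKM in IP, against 0.1618 and 0.2396 in input; with no filter, 1 gene of the list was higher and 1 lower. Kcnj6, which encodes GIRK2, had 3.178 and 2.538 FPKM in IP, against 6.544 and 6.163 in input (log2 change -0.94; limma, adjusted p = 0.000389). Kcnj3, which encodes GIRK1, changed by -0.30 and did not pass when IP replicate 2 (adjusted p = 0.071) or input replicate 2 (-0.19, adjusted p = 0.0977) was left out, or with no filter (adjusted p = 0.0509). Kcnj9, which encodes GIRK3, had 24.04 and 22.44 FPKM in IP and 24.61 and 23.57 in input and did not pass (limma, adjusted p = 0.491), except after rescaling and with quantile normalization, where it was lower.

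Of 9 adenylyl cyclase genes, which encode the enzymes that make cyclic AMP, 7 passed the filter. Of these, 5 fell and 1, Adcy3, rose (0.24), with a median of -0.34. Leaving out IP replicate 2, input replicate 1 or input replicate 2 left 3 lower genes, and Adcy3 did not pass when either IP replicate or input replicate 1 was left out. Adcy6 had 3.463 and 3.74 FPKM in IP, against 7.106 and 6.95 in input (log2 change -0.80; limma, adjusted p = 0.00022). Adcy9 and Adcy5 fell by 0.65 and 0.43. Among 6 genes of receptor desensitization 4 rose and 1, Grk5, fell (-0.24), with a median of 0.23, but after rescaling 1 was higher and 2 lower, and with quantile normalization 1 was higher. With any one library left out, 0 were lower. Grk6, a receptor kinase gene, had 41.13 and 41.1 FPKM in IP, against 23.99 and 23.53 in input (log2 change 0.77; limma, adjusted p = 6.01e-05). Arrb1, the gene of an arrestin, changed by 0.33, but by 0.00 after rescaling (adjusted p = 0.98).

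**Figure D5:**
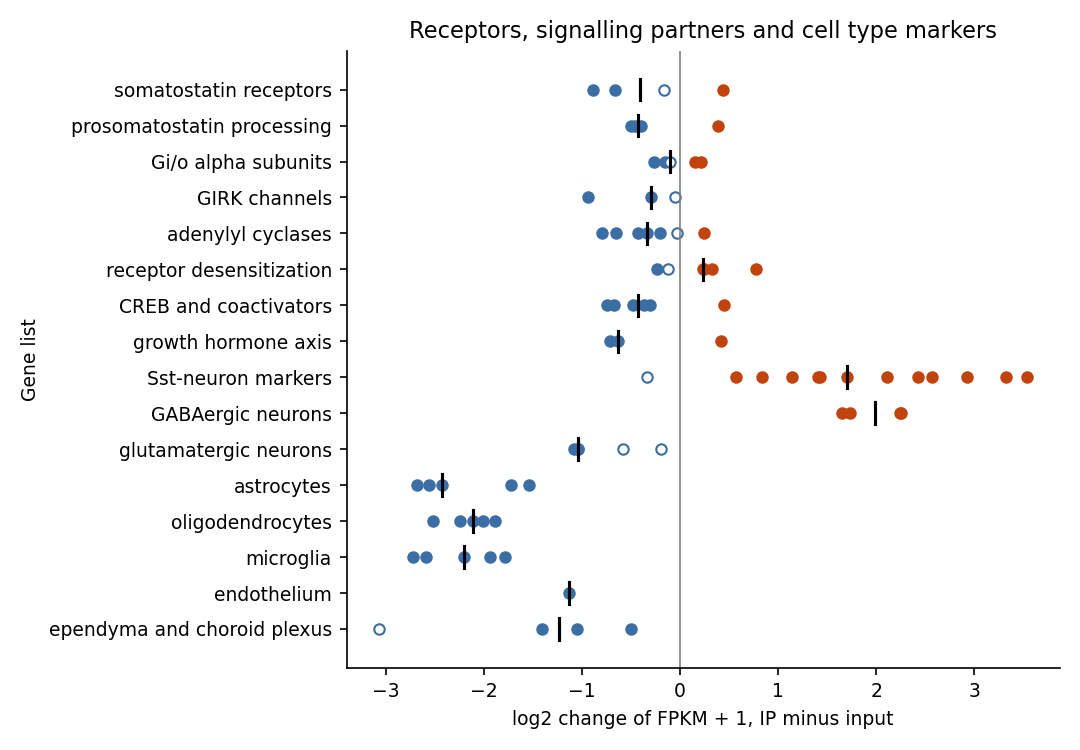
Log2 change of FPKM + 1, IP minus input, of each tested gene by list; filled points passed an adjusted p of 0.05 (red higher, blue lower in IP), open points did not, and black bars are medians. The Sst-neuron and GABAergic lists lie to the right, the glial lists to the left, and the receptors and their signalling partners between -0.94 (Kcnj6) and 0.77 (Grk6).

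The somatostatin gene is a textbook target of the cyclic AMP response element (CRE) and its factor CREB, and the full element TGACGTCA was therefore looked for in the 250 bases before the start of each member. RefSeq start windows of GRCm38.p6 matched 5 of the 7 members (Sst, Cort, Sstr2, Sstr3 and Sstr4). The element reads the same on both strands, and it contains the 5-base part TGACG once on each strand. It was present in 1.55% of 32851 windows, and the 5-base part on either strand in 17.8%. The windows of Sst (minus strand, chr16:23890845-23891094), Cort (minus strand, chr4:149126764-149127013) and Sstr2 (plus strand, chr11:113619077-113619326) are shown, with matches in capitals. Those of Sst and Cort are shown because the ligand genes moved together in IP. Sstr2 was the only receptor whose window held the full element. Sstr3 and Sstr4, whose windows are not shown, did not move with the ligands either.
Sst: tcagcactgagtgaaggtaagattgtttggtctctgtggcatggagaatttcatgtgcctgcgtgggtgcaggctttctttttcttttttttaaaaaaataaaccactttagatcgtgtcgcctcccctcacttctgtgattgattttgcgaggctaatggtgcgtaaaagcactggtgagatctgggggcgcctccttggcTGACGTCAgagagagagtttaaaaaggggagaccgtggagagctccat
Cort: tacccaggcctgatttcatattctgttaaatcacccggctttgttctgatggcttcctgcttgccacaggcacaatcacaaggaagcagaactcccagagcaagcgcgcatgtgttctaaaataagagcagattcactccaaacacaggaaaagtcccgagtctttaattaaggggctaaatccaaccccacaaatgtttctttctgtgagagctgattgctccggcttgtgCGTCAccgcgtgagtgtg
Sstr2: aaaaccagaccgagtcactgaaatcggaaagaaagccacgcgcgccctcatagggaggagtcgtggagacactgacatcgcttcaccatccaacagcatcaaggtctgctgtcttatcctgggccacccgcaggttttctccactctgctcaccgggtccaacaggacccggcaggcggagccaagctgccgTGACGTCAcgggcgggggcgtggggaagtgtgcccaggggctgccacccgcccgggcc
The full element lay 48 to 41 bases before the start of Sst and 58 to 51 bases before that of Sstr2. In Cort, which rose as Sst did, only the 5-base part was found, beginning 18 bases before the start and read on the opposite strand. The window of Sstr4 held neither, and 1 of the 2 windows of Sstr3 held the 5-base part. The element was present in the window of Sst, which rose 13.5-fold, and in that of Sstr2, which did not pass the test. Whether it bears on either value was not tested, and these matches describe letters and not binding.

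Of 6 genes of CREB and its relatives and coactivators, 5 fell and 1 rose, with a median of -0.42. Creb1 itself had 5.358 and 5.699 FPKM in IP, against 7.661 and 7.181 in input (log2 change -0.37; limma, adjusted p = 0.00552), which did not pass when input replicate 1 was left out (-0.33, adjusted p = 0.0517) and with quantile normalization (-0.21, adjusted p = 0.0505). With quantile normalization 3 of the 6 were lower. The coactivator genes Crtc3 and Crtc2 fell by 0.75 and 0.67. Crem was the gene that rose, by 0.45, but not once the libraries were rescaled (0.16, adjusted p = 0.113).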

How the data were processed

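RNA was sequenced from 2 IP and 2 input libraries, as 100 bp single-end reads per the series' design text. Per that text and the submitters' processing notes, the authors aligned reads with TopHat to mm10 with the iGenomes UCSC annotation and made Cufflinks values, with versions not given in the sources used here. The deposited values are FPKM for each library with confidence limits, per the file headers, so read totals are unknown; FPKM summed to 423985 and 419349 in IP and 334759 and 335119 in input.

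Groups came from the titles; the title and source description of IP replicate 2 disagree on its number, and the title was followed. Entries with a failed status (8) and small RNA names (1278) were left out, and the entry with the highest mean was kept per symbol. Testing covered the 12417 genes that reached 1 FPKM in 2 or more libraries, as log2(FPKM + 1), without a block, with limma 3.58.1 (R 4.3.3, lmFit and eBayes with trend, two-sided, Benjamini-Hochberg over all genes tested, threshold 0.05), and the test was checked on simulated data. Named are the members, genes of the lists, and the 5 genes nearest in pattern to each ligand gene; members, lists and rules were chosen with earlier results of these data known. Apitd1 was chosen after its values were seen, as was the ratio to Npy. Same-numbered IP and input libraries come from the same pools per the design text, and their deviations correlated at 0.163 across genes for replicate 1. The labels do not say whether the 2 pools of a group came from different mice, so p-values measure only the spread between these libraries. Whether strand was used in counting is unstated in the labels. Alternatives were other pseudocounts, filters, scalings and eBayes options, a replicate block, summed entries and each library left out. A gene of the Sst-neuron list is not reported here and was left out of that list's counts.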

Additional observations from a re-analysis of the deposited data

How the results depend on the processing

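Sst, Cort and Sstr4 kept their direction and their call under every alternative that could be run, 15 for each ligand and 14 for Sstr4, with log2 changes of 2.76 to 3.79 for Sst, 3.27 to 3.75 for Cort and -1.38 to -0.43 for Sstr4. Sst was lowest under quantile normalization, which forces all libraries to 1 distribution of values. Rescaling to equal FPKM sums took Sstr1 to 0.152 (adjusted p = 0.104) and Sstr2 to -0.501 (adjusted p = 0.012), and quantile normalization took Sstr3 to -0.364 (adjusted p = 0.0593); rescaling moved the median of all genes tested to -0.29, against 0.03 with the deposited values, though not every gene moved down (Hyi stood at 5.312 and Chodl at 1.368), and for Sstr3 the cause was not tested. Rescaling also gave 2227 higher and 6685 lower genes, against 4597 and 4206 with the deposited values, and a filter at FPKM of 5 left 2437 lower genes among fewer tested. With the replicate block, 9116 genes were called against 8803 without it, Sst changed by 3.747, Sstr1 by 0.444 and Sstr4 by -0.893, and of the genes named the block changed the call of Reln only. With 1 library left out, the count of genes called ran from 7145 to 8223, the log2 change of Sstr1 from 0.416 to 0.472 and that of Sstr2 from -0.300 to -0.029, with no call of a member changed. The Cort to Sst ratio was 3.11% to 3.37% in IP and 3.06% to 3.37% in input with 1 library left out, 3.0% to 3.49% in IP and 2.34% to 4.15% in input between the confidence limits, where the input Sst to Npy ratio was 303% to 379%. Of the 44 other genes named, 26 kept direction and call under each alternative that could be run; 42 of 651 alternative values lost a call, 5 gained one and 6 changed sign. Rescaling turned Adcy3 to -0.067, Gnai1 to -0.191 and Gnai2 to -0.126, and quantile normalization turned Gnai1 to -0.213, Gnai2 to -0.146 and Grk5 to 0.080; the cause was not tested. Sstr3 and Sstr4 could not be tested with the filter at FPKM of 5. Depth limits Sstr5 above all, whose confidence limits reach 47.1% to 89.6% of its value to either side of it.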

Other observations

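Genes of the growth hormone axis, which somatostatin inhibits in the pituitary, were low in these libraries. Of 6 genes 3 passed the filter, and 1 of them, Igf1, rose (1.418 and 1.59 FPKM in IP, against 0.8692 and 0.8783 in input; log2 change 0.42; limma, adjusted p = 0.00749) while 2 fell; Igf1 did not pass after rescaling (adjusted p = 0.0612). Igf1r, the receptor gene of insulin-like growth factor 1, had 1.49 and 1.628 FPKM in IP, against 3.192 and 3.192 in input (log2 change -0.71; limma, adjusted p = 0.000529). Ghr, the growth hormone receptor gene, had 0.8245 and 1.26 FPKM in IP, against 1.804 and 2.52 in input (log2 change -0.63; limma, adjusted p = 0.0111), which did not pass when input replicate 2 was left out (-0.465, adjusted p = 0.0839) or with quantile normalization (-0.203, adjusted p = 0.293). Ghsr, the ghrelin receptor gene, whose product can also bind cortistatin, had 0.01923 and 0.0231 FPKM in IP and 0.04379 and 0.06343 in input, below the filter. Ghrh had 0.134 and 0.1609 FPKM in IP and 0.3051 and 0.5892 in input, and Ghrhr was listed at 0 in all 4 libraries.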
